A study of Drosophila melanogaster with 12 samples.

Results

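The larval ventral nerve cord of Drosophila melanogaster was compared between animals with a catalytically dead KDM5 and wild type, which made up 8 of the 12 samples of the series. The JmjC* group held 4 samples of kdm5 JmjC* homozygotes, whose allele the labels describe as demethylase inactive. The WT group held 4 samples that were not an unmodified strain: they carried the kdm5 140 allele and a gKDM5 transgene that rescued it, so KDM5 came from the transgene. The remaining 4 samples, homozygous for the kdm5 L854F missense allele, are set beside JmjC* only where a difference between the mutants was tested. All animals were wandering third-instar larvae grown on standard medium at 25C without treatment. Whether the JmjC* allele sat at the kdm5 locus or on a transgene, how many larvae made up a sample, their sex and any batch are not given in the sources used here.

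KDM5 is the fly member of a family of JmjC-domain enzymes that remove methyl groups from lysine 4 of histone H3, a mark found at the start sites of active genes. The protein also binds chromatin and partner complexes through other domains, and flies can survive without the enzymatic activity although not without the protein. An allele such as JmjC* therefore separates the demethylase reaction from the rest of the protein. The ventral nerve cord holds motor neurons, interneurons, peptide-secreting neurons, dividing neuroblasts and several kinds of glia.

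The 8 libraries held between 16073820 and 16670473 expected counts. Spearman correlations taken across genes were between 0.991 and 0.997 within groups and between 0.985 and 0.989 across them, and genes are not independent replicates. The first principal component held 54.6% of the variance and separated the groups. JmjC* replicate 3 lay apart from the other JmjC* samples on the second component, which held 12.9%. WT replicate 3 lay at the same end of the WT samples on it. Nerve cord identity was clear in both groups: the neuronal gene elav stood at 888 ± 93.0 CPM in WT and 927 ± 45.9 in JmjC*, and the glial gene repo at 169 ± 10.2 and 177 ± 4.64. Levels are in CPM, counts scaled to library size with TMM factors, and a group value is the mean ± SD of 4 samples. Nothing in the labels says that replicates came from separate cultures, so p-values measure the spread between these samples, which may be partly technical.

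The transcript of the altered gene did not identify the genotype. Kdm5 (FBgn0031759, 2L:5989400-5999501, minus strand, BDGP6.54) read 736, 733, 667 and 737 CPM in WT replicates 1 to 4 and 795, 816, 729 and 762 CPM in JmjC* replicates 1 to 4. The groups overlapped, since the lowest JmjC* sample lay below most WT samples. The log2 difference was 0.11 (SE 0.06, adjusted p 0.201), and an exact two-sided permutation test gave p = 0.114. The 4 WT libraries read a rescue transgene as well as any RNA from the 140 allele, and the counts do not tell the alleles apart.

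Many genes differed between JmjC* and WT, most of them by little. Of 9244 genes tested, 1602 (17.3%) were called at an adjusted p under 0.05. There were 893 called higher in JmjC* (9.66% of the genes tested) and 709 called lower (7.67%), and groups did not overlap for 2101 genes (22.7%). The median log2 change was 0.57 among the rises and -0.39 among the falls, against 0.003 over all genes tested. Of the rises 286, and of the falls 106, amounted to 1 log2 unit or more. Without JmjC* replicate 1, falls numbered 458.

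Many of the rises began from low levels. Genes called higher had a median WT level of 18.4 CPM, against 40.3 CPM for genes called lower and 36.8 CPM for all genes tested. WT is also the reference of the log2 change, so part of this contrast follows from how rises and falls were defined. A WT mean under 10 CPM was found for 358 rises and 132 falls, and 156 rises began from under 1 CPM. Of the rises, 151 passed the filter on low counts through the JmjC* samples only, so they could be tested only because they were high there. Among the 2370 genes with a WT mean of 100 CPM or more, there were 125 rises and 164 falls.

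**Figure D1:**
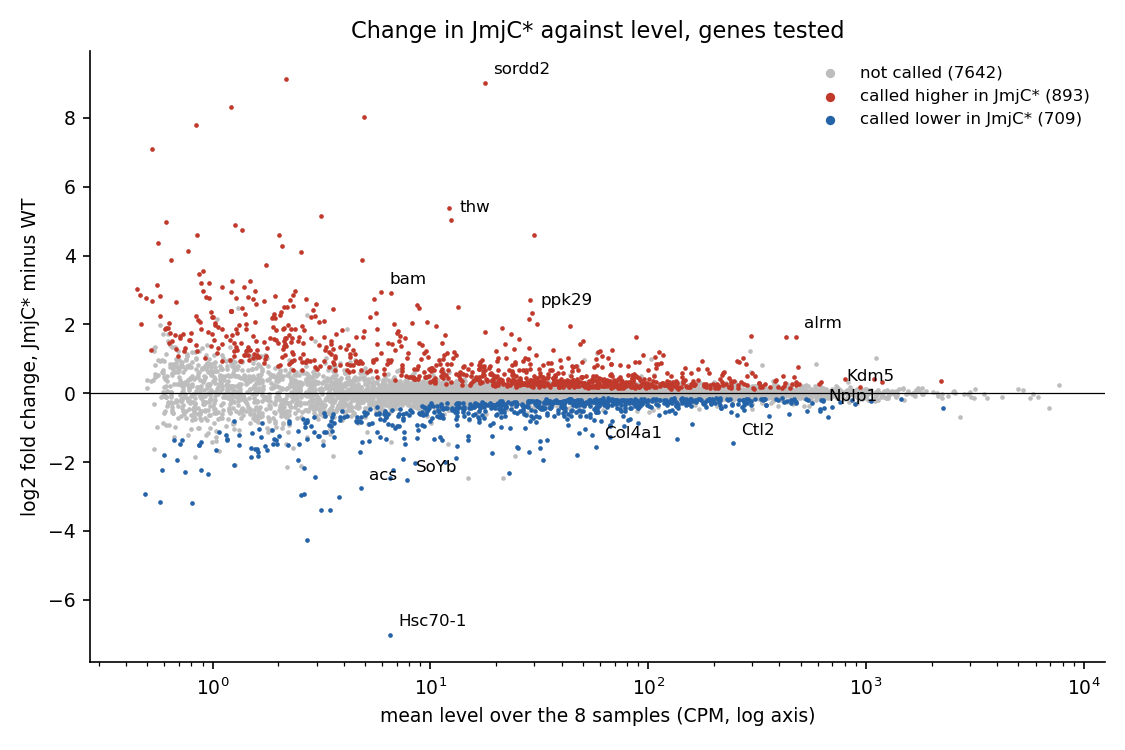
Log2 fold change in JmjC* against WT (vertical axis) plotted against the mean level over the 8 samples in CPM (horizontal log axis) for the 9244 genes tested. Red points are the 893 genes called higher in JmjC*, blue points the 709 called lower and grey points the rest. Most of the largest rises sit at the left, at low levels, and Kdm5 sits near 0 at the right.

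Several genes that were close to silent in wild-type nerve cord reached a clear level in JmjC*. thw (FBgn0037487, 3R:7224414-7241138) read 1.31, 0.502, 0.476 and 0.609 CPM in WT and 23.1, 22.7, 23.5 and 26.8 CPM in JmjC*. Every JmjC* sample was far above every WT sample, with a log2 change of 5.03 (SE 0.21, adjusted p 1.76e-07). thw passed the filter through JmjC* only, so it could be tested only because it was high there. In L854F it stood at 0.734 ± 0.089 CPM, close to WT, and the difference between the mutants was 5.01 on the log2 scale (adjusted p 1.29e-09). CG12716 rose from 1.54 to 11.6 CPM (log2 change 2.90), CG3345 from 2.5 to 14.9 CPM (2.57) and the mucin gene Muc14A from 4.05 to 22.8 CPM (2.49), without overlap.

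A pair of sodium channel subunits of the DEG/ENaC family was among the 8 largest rises. ppk29 (FBgn0034965), whose protein acts in sensory neurons that detect pheromones, read 10.04, 12.1, 8.80 and 7.73 CPM in WT and 49.0, 49.998, 51.6 and 44.1 CPM in JmjC* (log2 change 2.33, SE 0.12, adjusted p 4.04e-07). rpk stood at 2.70 ± 0.874 CPM in WT and 15.1 ± 1.03 CPM in JmjC* (2.48, adjusted p 1.39e-05). For both genes JmjC* was also above L854F, by 1.47 for ppk29 (adjusted p 1.44e-06) and 1.67 for rpk (adjusted p 3.84e-06). sordd2, the largest rise of a gene with a symbol, was high in both mutants. It had 0, 0, 4 and 0 counts in the WT libraries, against a mean of 35.5 ± 1.64 CPM for JmjC* and 35.3 ± 2.72 CPM for L854F. In the fit against WT, sordd2 passed the filter through JmjC* only. Its near-identical neighbour sordd1 makes the split of reads between them uncertain.

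Among abundant transcripts the largest rises were a hairpin RNA and a glial surface protein. alrm (FBgn0039332, 3R:25381065-25382781), a leucine-rich repeat protein used as a marker of astrocyte-like glia, read 197, 220, 243 and 259 CPM in WT and 681, 710, 703 and 779 CPM in JmjC*. No sample overlapped (log2 change 1.65, SE 0.08, adjusted p 4.82e-07), and in L854F it was 258 ± 47.3 CPM. hpRNA:CR46342, a hairpin transcript of the kind cut into endogenous small interfering RNAs, stood at 142 ± 10.5 CPM in WT and 452 ± 22.9 CPM in JmjC* (1.67, adjusted p 1.23e-07). CG44774 stood at 208 ± 14.6 and 651 ± 52.3 CPM (1.64). The annotated spans of these neighbours on the minus strand of the X chromosome overlap, so their counts cannot be taken as separate. CG44838 (179 ± 3.3 to 366 ± 24.6 CPM) also rose.

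The largest falls were found in genes of different roles. SoYb (FBgn0051755, 2L:9996706-10002736), a Tudor-domain protein of the piRNA pathway, read 13.1, 15.6, 13.2 and 11.6 CPM in WT and 2.58, 2.62, 1.84 and 2.18 CPM in JmjC* (log2 change -2.53, adjusted p 1.59e-06). L854F lay between the other groups at 4.58 ± 0.509 CPM. CG17186 fell from 38.1 ± 2.14 to 7.64 ± 0.697 CPM (-2.32), CG42694 from 52.2 ± 6.27 to 13.7 ± 1.04 CPM (-1.93), CG6293 from 11.1 ± 1.02 to 2.01 ± 0.492 CPM (-2.46) and the cytochrome P450 gene Cyp6a13 from 13.7 ± 1.02 to 3.35 ± 1.12 CPM (-2.03). CG5171 fell from 18.6 ± 4.51 to 4.64 ± 3.38 CPM (-2.0). Hsc70-1, a chaperone of the Hsp70 family, read 4.002, 20.4, 3.45 and 24.1 CPM in WT and at most 4 counts in a JmjC* library. L854F was as low for Hsc70-1, at 0.0455 ± 0.0579 CPM. Hsc70-1 passed the filter through WT only, so it could be tested only because it was high there.

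Among abundant genes the largest fall was that of Ctl2 (FBgn0039637, 3R:29123370-29128247), a choline transporter-like protein. It read 352, 344, 407 and 333 CPM in WT and 134, 127, 189 and 76.9 CPM in JmjC* (log2 change -1.45, SE 0.21, adjusted p 0.000703). All JmjC* samples were lower, replicate 4 most and replicate 3 least, and L854F stood at WT level with 354 ± 56.9 CPM. Asator, a kinase of the tau-tubulin kinase family, fell from 829 ± 61.8 to 513 ± 20.8 CPM (-0.69) and was as low in L854F, at 490 ± 42.9 CPM. Obp99a, an odorant-binding protein abundant in this tissue, fell from 531 ± 43.5 to 350 ± 20.2 CPM (-0.60), and the lipoprotein gene cv-d from 310 ± 24.2 to 202 ± 13.7 CPM (-0.62). CG15353 fell from 440 ± 39.9 to 276 ± 28.5 CPM (-0.68). At a lower level, under the 200 CPM that defined abundant genes, Indy, a citrate transporter, fell from 88.3 ± 8.15 to 45.7 ± 4.43 CPM (-0.95, adjusted p 3.35e-05). Indy was the only fall in a list of sugar and organic anion carriers. In that list 6 of 21 tested genes were called higher (28.6%, beside 9.66% over all genes). Of the 6 rises 1 passed the filter through JmjC* only, and without any 1 library rises numbered 3 to 5.

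**Figure D2:**
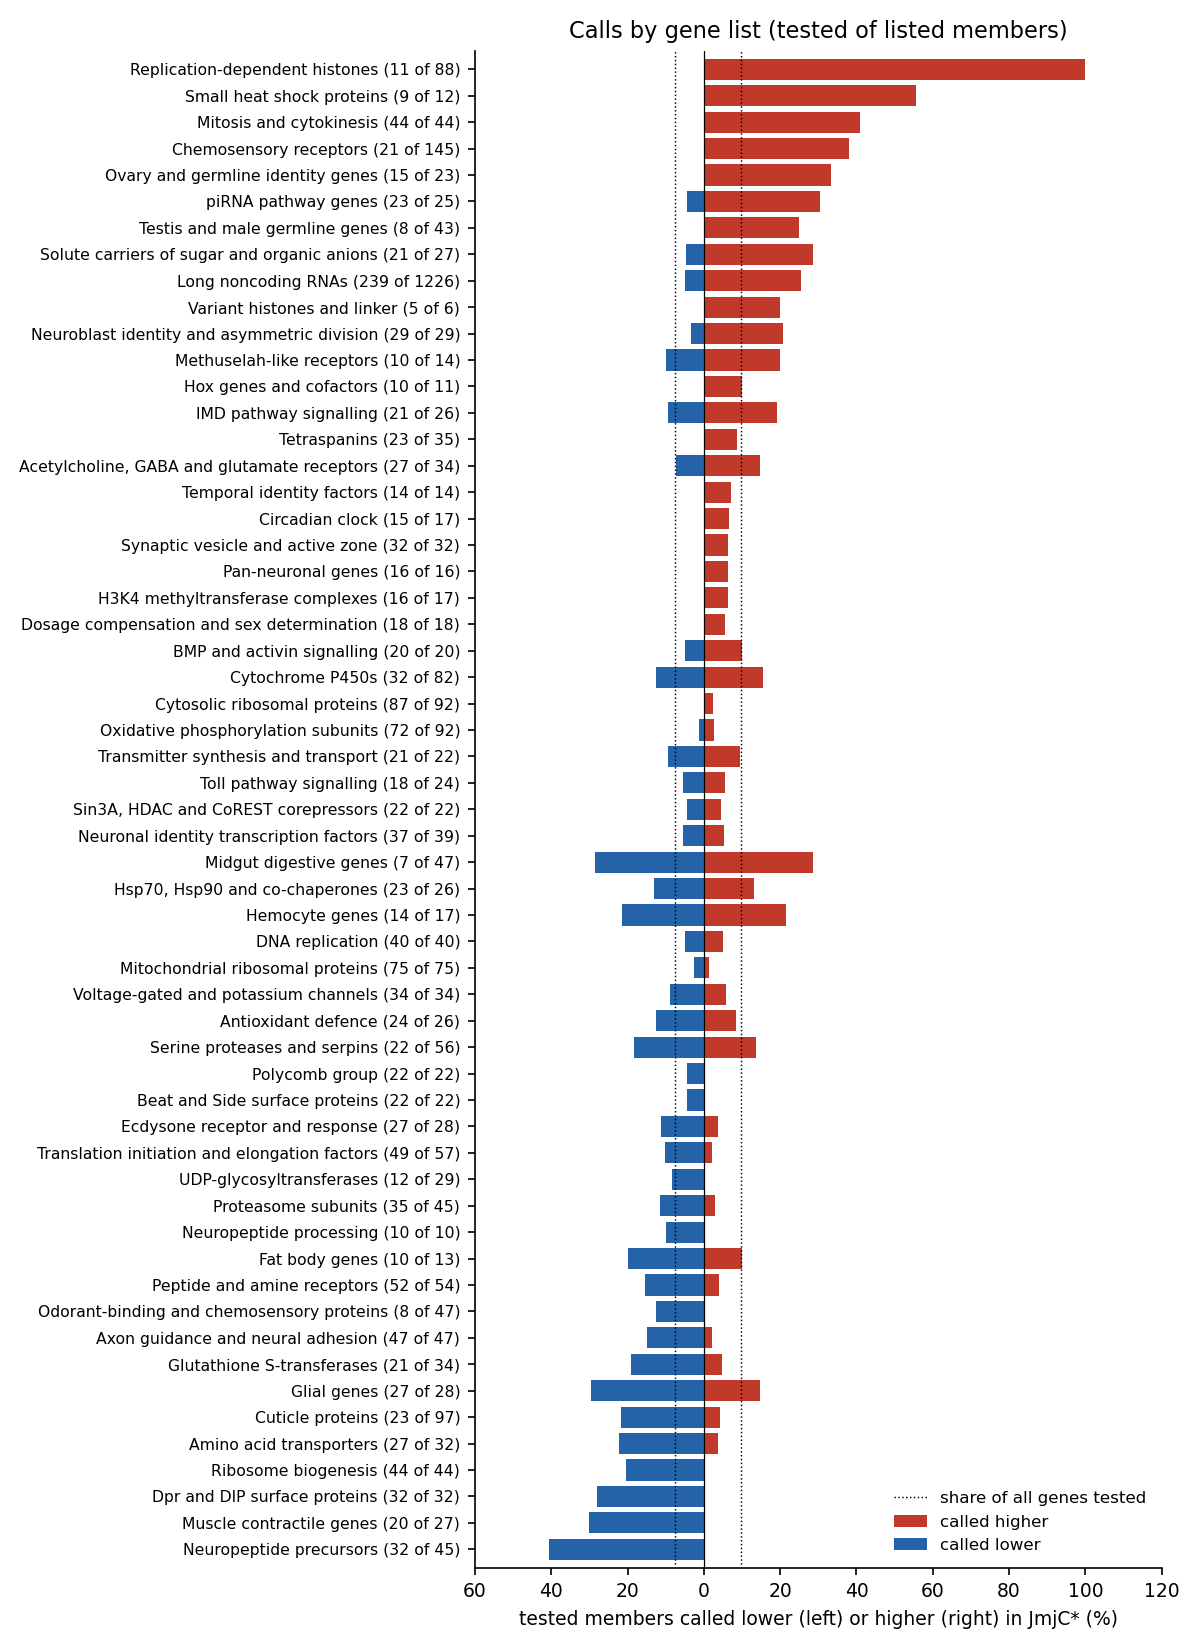
Share of tested members called higher (red, to the right) or lower (blue, to the left) in JmjC* against WT, in percent, for each gene list with at least 1 call and 5 tested members; tested and listed members are given after each name. Dotted lines mark the shares over all genes tested, 9.66% higher and 7.67% lower. Of the rises, 10 of 11 histones and 5 of 8 chemosensory receptors passed the filter through JmjC* only. The same held for 3 of 3 hemocyte genes, 3 of 5 ovary and germline genes and 29 of 61 long noncoding RNAs. Of the falls, 3 of 6 muscle genes and 3 of 5 cuticle genes passed through WT only. The order of these lists is therefore partly set by the filter, which also let in single members of other lists.

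Many cell division genes rose. The list held 44 genes of mitosis and cytokinesis, all tested, of which 18 were called higher (40.9%) and 0 lower. Over all genes tested, 9.66% were called higher and 7.67% lower, and the list counts below are to be read beside these shares. The median log2 change over the list was 0.18, and 34 members had a positive difference. Without any 1 library the count of rises was between 16 and 22. No called member changed by as much as 1 on the log2 scale. For 17 of the 44 genes JmjC* was called above L854F, and for none below, where 8.80% of 9207 genes were called higher and 7.20% lower in JmjC*.

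The rises included genes of mitotic entry, the spindle and cytokinesis. borr (FBgn0032105), which encodes Borealin, a subunit of the chromosomal passenger complex, read 18.1, 17.3, 16.2 and 18.3 CPM in WT and 33.1, 31.2, 31.4 and 30.6 CPM in JmjC* (log2 change 0.85, SE 0.06, adjusted p 6.91e-06). Cdk1, the kinase that drives entry into mitosis, read 34.6, 34.9, 41.0 and 35.5 CPM in WT and 58.4, 53.7, 65.3 and 57.7 CPM in JmjC* (0.69, adjusted p 0.000131). Neither gene overlapped between the groups. CycB, its cyclin partner, stood at 72.5 ± 5.17 and 103 ± 7.005 CPM (0.51). fzy, the Cdc20 activator of the anaphase-promoting complex, stood at 33.9 ± 2.29 and 45.5 ± 0.824 CPM (0.42). The kinetochore genes Nuf2 (12.3 to 18.8 CPM) and Spc25 (14.0 to 19.5 CPM) rose, as did the spindle motor Klp61F (50.1 to 68.6 CPM). In cytokinesis, pbl, needed for the cleavage furrow, rose from 56.2 ± 2.92 to 79.6 ± 4.27 CPM (0.50), and its partners pav (0.32), tum (0.30) and scra (0.33) rose less.

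DNA replication genes showed few calls. List counts of 1 to 3, here and elsewhere in the text, mostly changed when 1 library or another was left out. Of 40 listed and tested, 2 were called higher and 2 lower, with a median of 0.003. Among 29 genes of neuroblast identity and asymmetric division, 6 were higher (20.7%) and 1 lower (3.45%), with a median of 0.05. l(2)gl, a cortical tumour suppressor that guides asymmetric division, read 167, 183, 181 and 165 CPM in WT and 329, 332, 299 and 377 CPM in JmjC* (log2 change 0.94, adjusted p 9.69e-06), without overlap. The polarity gene baz rose from 27.0 ± 1.31 to 37.8 ± 1.34 CPM (0.49). The exception was mira, an adaptor that carries fate determinants into the daughter cell, which fell from 142 ± 9.15 to 97.7 ± 10.6 CPM (-0.54, adjusted p 0.000816). In bulk tissue, more cells of a type and more RNA per cell cannot be told apart.

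Some genes best known from the germline also rose. The list of ovary and germline identity genes held 23 members, of which 15 were tested. Of these 5 were called higher and 0 lower, but 3 of the 5 passed the filter through JmjC* only, so the count is a description of which genes appeared and not of a share. bam (FBgn0000158, 3R:25243039-25245109), the factor that starts differentiation of germline stem cell daughters, read 1.43, 1.13, 1.13 and 1.77 CPM in WT and 11.7, 9.05, 9.73 and 11.4 CPM in JmjC* (log2 change 2.93, SE 0.18, adjusted p 1.86e-06). L854F did not follow, at 0.933 ± 0.220 CPM, and the difference between the mutants was 3.46 (adjusted p 9.55e-07).

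Of the other called members, vas, osk and zpg began close to 0 and pum did not. vas, an RNA helicase of the germ plasm, read 0.478, 1.19, 0.535 and 0.487 CPM in WT and 4.60, 3.81, 2.75 and 2.61 CPM in JmjC* (log2 change 2.35, adjusted p 0.000754). osk, which assembles the germ plasm, stood at 0.169 ± 0.141 and 1.61 ± 0.693 CPM (3.21, adjusted p 0.00134). zpg, a gap junction protein of germ cells, had 0, 0, 3 and 0 counts in WT and 24, 15, 16 and 15 counts in JmjC*. Every JmjC* sample exceeded every WT sample for vas, osk and zpg, and groups did not overlap for 22.7% of all genes tested. These are the 3 rises that passed the filter through JmjC* only, so their separation is a description and no support. pum, a translational repressor that neurons use too, rose from 447 ± 21.6 to 539 ± 13.8 CPM (0.27, adjusted p 0.00334).

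The piRNA pathway silences transposons in gonads. Of 25 listed genes 23 were tested, 7 called higher (30.4%) and 1 lower (4.35%), beside 9.66% and 7.67% over all genes. The median log2 change was 0.12, and 1 of the 7 rises passed the filter through JmjC* only. aub, a PIWI protein, read 2.39, 2.89, 1.84 and 1.77 CPM in WT and 7.24, 7.55, 7.53 and 8.59 CPM in JmjC* (log2 change 1.80, adjusted p 5.98e-05). squ rose from 3.80 ± 1.17 to 11.6 ± 0.858 CPM (1.60), nxf2, an export factor variant that acts in nuclear silencing, from 7.90 ± 0.650 to 14.1 ± 1.66 CPM (0.84), and the Tudor protein gene vret from 9.15 ± 0.756 to 13.7 ± 0.601 CPM (0.58). krimp fell from 6.18 ± 1.43 to 3.45 ± 0.450 CPM (-0.84, adjusted p 0.0109). SoYb, given above, is not a member of this list. Among the other PIWI proteins, AGO3 stood at 4.44 ± 0.872 and 5.90 ± 1.49 CPM and piwi at 1.21 ± 0.783 and 2.101 ± 0.730 CPM in WT and JmjC*, and neither passed the test. Against L854F, 10 of the 23 were called higher in JmjC* and 0 lower, beside 8.80% and 7.20% over all genes.

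A few further genes are copies of housekeeping genes, named here one by one and not counted as a group. Of 87 tested cytosolic ribosomal protein genes, 2 were called higher and 0 lower, and both are second copies. RpS5b read 9.26, 11.2, 11.2 and 12.3 CPM in WT and 37.4, 34.6, 36.0 and 36.2 CPM in JmjC* (log2 change 1.71, SE 0.08, adjusted p 3.65e-07). RpS10a stood at 0.197 ± 0.115 and 3.98 ± 0.838 CPM (4.28, adjusted p 1.51e-05). TrxT, a thioredoxin named for its expression in testis, stood at 0.225 ± 0.148 and 2.24 ± 0.541 CPM (3.26), the proteasome copy Rpt3R at 2.17 ± 0.386 and 4.80 ± 0.320 CPM (1.14), the chaperonin copy Hsp60D at 0.589 ± 0.149 and 2.01 ± 0.324 CPM (1.75) and the ATP synthase copy ATPsynepsilonL at 0.428 ± 0.160 and 1.48 ± 0.219 CPM (1.78). Other copies fell: Rpt6R went from 2.80 ± 0.214 to 1.10 ± 0.489 CPM (-1.35) and Cyt-c1L from 1.04 ± 0.230 to 0.371 ± 0.0860 CPM (-1.48). Reads could be divided between copies of similar sequence, so these low values are uncertain. RpS10a, TrxT, Hsp60D and ATPsynepsilonL passed the filter through JmjC* only, and Rpt6R and Cyt-c1L through WT only, so each could be tested only because it was high in that group.

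Few genes of the testis could be tested. Of 43 genes of testis and male germline, 35 did not reach the level needed for a test, and of the 8 tested 2 were called higher, bam among them. The other was mia, a testis-specific TAF, which rose from 12.6 ± 1.54 to 20.7 ± 1.55 CPM (log2 change 0.72, adjusted p 0.000587). The list summed to between 337 and 372 CPM in WT samples and between 324 and 357 CPM in JmjC* samples. aly, a master regulator of spermatocyte genes, was at 0.0605 ± 0.0845 CPM in WT and 0.0156 ± 0.0311 CPM in JmjC*.

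**Figure D3:**
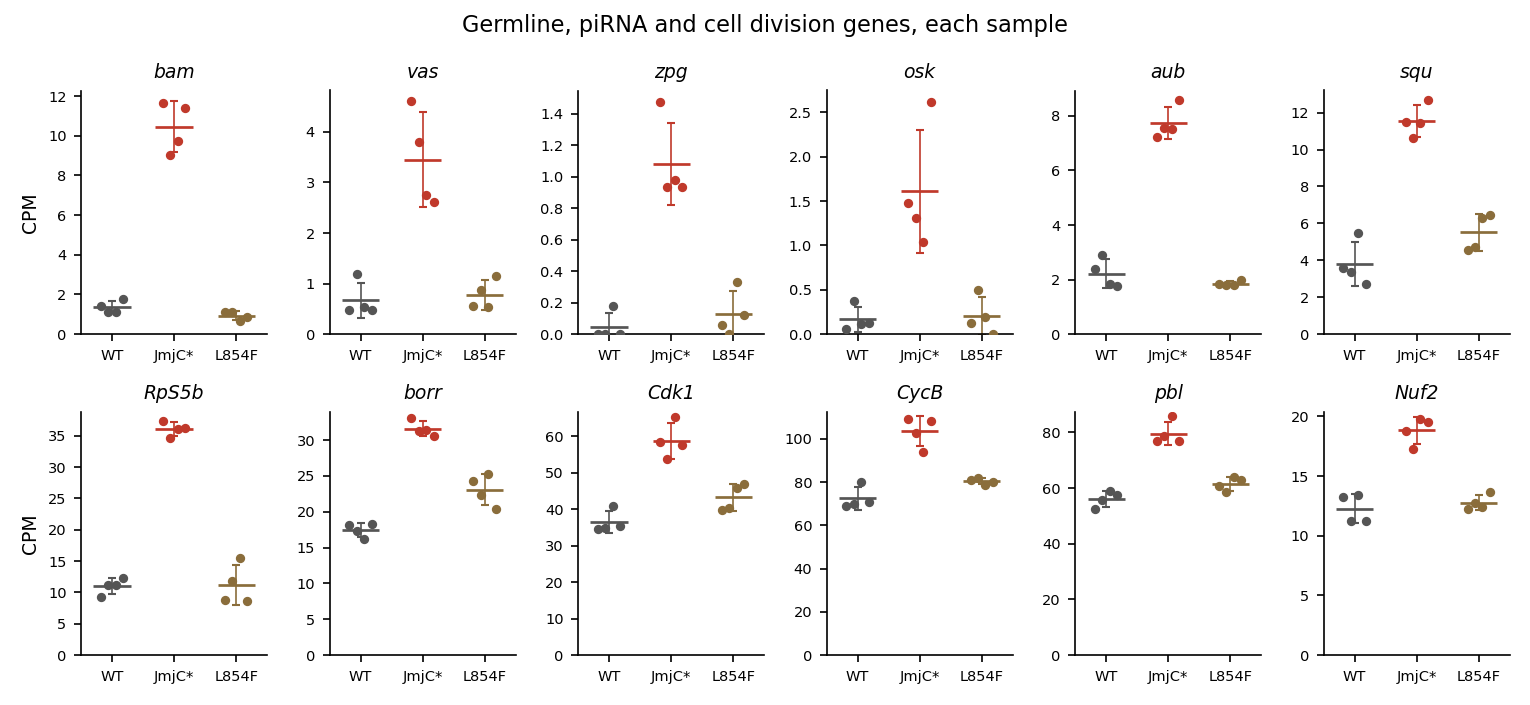
Level in CPM (vertical axes, starting at 0) in each of 4 WT, 4 JmjC* and 4 L854F samples for germline and piRNA genes, the ribosomal protein copy RpS5b and genes of cell division. Points are samples, horizontal lines are means and bars are SDs; L854F was scaled in its own fit with WT. The JmjC* samples lie above all WT samples in each panel shown, of which vas, zpg and osk passed the filter through JmjC* only.

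Many neuropeptide genes fell. Of 45 listed precursors 32 were tested, 0 were called higher and 13 lower (40.6%, beside 7.67% over all genes). A negative difference was found for 26 of the 32. The median log2 change of the list was -0.32. Without any 1 library, between 11 and 16 precursors were lower. The list summed to between 2419 and 2622 CPM in WT samples and between 1892 and 2446 CPM in JmjC* samples, so the sums overlapped. All 13 had passed the filter in both groups.

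Peptides of several neuron types were among them. Nplp1 (FBgn0035092), a neuropeptide-like precursor, read 707, 741, 666 and 714 CPM in WT and 531, 533, 461 and 539 CPM in JmjC* (log2 change -0.45, SE 0.06, adjusted p 0.000498). Ilp6, an insulin-like peptide that glia and fat body also make, read 65.2, 67.6, 63.4 and 57.5 CPM in WT and 40.7, 42.4, 42.9 and 33.4 CPM in JmjC* (-0.67, adjusted p 0.000309). Neither overlapped between the groups. The diuretic hormones Dh44 (40.8 ± 2.43 to 30.9 ± 0.857 CPM, -0.40) and Dh31 (45.1 ± 3.08 to 28.8 ± 4.14 CPM, -0.65) fell, and so did Crz, the stress hormone corazonin (64.8 ± 3.87 to 43.0 ± 5.71 CPM, -0.59).

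The remaining falls included peptides of moulting, gut and water balance. CCAP, a peptide of the ecdysis motor programme, fell from 36.6 ± 2.19 to 26.9 ± 1.65 CPM (log2 change -0.44), allatostatin AstA from 70.5 ± 4.29 to 55.1 ± 2.01 CPM (-0.35) and Capa, a diuresis-regulating peptide, from 158 ± 13.9 to 117 ± 7.61 CPM (-0.43). Gpa2, a subunit of a glycoprotein hormone, fell from 53.1 ± 3.53 to 31.8 ± 7.84 CPM (-0.74). Nplp4 fell from 26.8 ± 8.17 to 11.4 ± 4.44 CPM (-1.24) and FMRFa, a neuromuscular modulator, from 117 ± 7.04 to 89.01 ± 12.2 CPM (-0.39). Gpb5 (adjusted p 0.0408) and Mip (adjusted p 0.0438) passed narrowly. Gpb5 lost its call without any 1 of WT replicates 1 to 4 and JmjC* replicates 1 and 2, and Mip without any 1 of WT replicates 1 to 4 and JmjC* replicates 1 and 3, with adjusted p up to 0.121 and 0.113. Fewer peptide-making neurons and less RNA in each cannot be told apart.

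The genes that process peptides showed few calls. Of 10 processing genes, all tested, 0 were called higher and 1, Pal1, lower. Pal1 lost its call without any 1 library other than WT replicate 2. amon, the main proprotein convertase of peptide neurons, stood at 265 ± 14.8 CPM in WT and 247 ± 11.02 CPM in JmjC* (adjusted p 0.235), and the carboxypeptidase svr at 430 ± 7.72 and 443 ± 27.9 CPM (adjusted p 0.605). The direct test against L854F called 7 of 31 precursors lower in JmjC* and 1 higher, beside 7.20% and 8.80% over all genes. Ilp6 (-0.72, adjusted p 0.000304), Nplp1 (-0.33, adjusted p 0.00827) and Dh31 (-0.48, adjusted p 0.00761) were lower than in L854F. Capa and FMRFa did not pass between the mutants (adjusted p 0.0926 and 0.390), with L854F at 101 ± 10.2 and 80.9 ± 3.87 CPM.

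Receptors for peptides and amines were mixed. Of 52 tested, 2 were called higher (3.85%) and 8 lower (15.4%), beside 9.66% and 7.67% over all genes. A negative difference was found for 37 (median log2 change -0.09). Falls numbered 3, 4, 5, 5 and 4 without WT replicates 1, 2 and 4 and JmjC* replicates 1 and 4. TkR99D, a tachykinin receptor, was a rise, with 36.3, 36.1, 35.3 and 35.7 CPM in WT and 85.3, 75.7, 89.4 and 77.5 CPM in JmjC* (1.19, SE 0.06, adjusted p 5.62e-07). It was also above L854F, by 0.99 (adjusted p 3.09e-06). Octalpha2R, an octopamine receptor, rose from 69.2 ± 4.77 to 99.3 ± 0.505 CPM (0.52). Lkr, the leucokinin receptor, fell from 48.9 ± 4.04 to 34.0 ± 3.60 CPM (-0.53), and Oamb, another octopamine receptor, from 65.9 ± 5.77 to 49.3 ± 5.43 CPM (-0.42).

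Cell surface proteins by which neurons recognise partners leaned downward by small amounts. In the Dpr and DIP families, immunoglobulin proteins that bind each other across synapses, 0 of 32 tested were called higher and 9 lower. The share lower was 28.1%, beside 7.67% over all genes, and the median log2 change was -0.14. Without WT replicate 1 there were 4 falls and without JmjC* replicate 1 there were 5. dpr11 read 142, 151, 141 and 165 CPM in WT and 127, 128, 114 and 121 CPM in JmjC* (-0.29, SE 0.06, adjusted p 0.00904). DIP-theta fell from 46.3 ± 3.91 to 35.4 ± 2.38 CPM (-0.39) and DIP-epsilon from 39.7 ± 1.44 to 32.3 ± 0.929 CPM (-0.30). JmjC* was called below L854F for 9 of the 32 and above it for 1, beside 7.20% and 8.80% over all genes.

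Guidance and adhesion genes of the list used here showed the same lean, while ontology terms differed. Axon guidance had 5 higher and 5 lower of 179 tested genes (median log2 change -0.006). Motor neuron axon guidance had 2 higher and 7 lower of 64 (-0.09), and cell adhesion 3 higher and 7 lower of 60 (-0.07). Among the 47 tested genes of the list, 1 was higher (2.13%) and 7 were lower (14.9%), beside 9.66% and 7.67% over all genes. A negative difference was found for 37, and the median was -0.08. The count of falls was 4 without any 1 of WT replicates 1, 2 and 3 and JmjC* replicates 1 and 2. Fas2, an adhesion molecule of motor axons, fell from 687 ± 23.3 to 585 ± 17.4 CPM (log2 change -0.23, adjusted p 0.00628), and Con, a leucine-rich repeat protein of muscle target recognition, from 268 ± 28.0 to 218 ± 7.87 CPM (-0.30, adjusted p 0.0149). In the Beat and Side families 20 of 22 tested genes had a negative difference, but 0 were called higher and 1 lower.

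**Figure D4:**
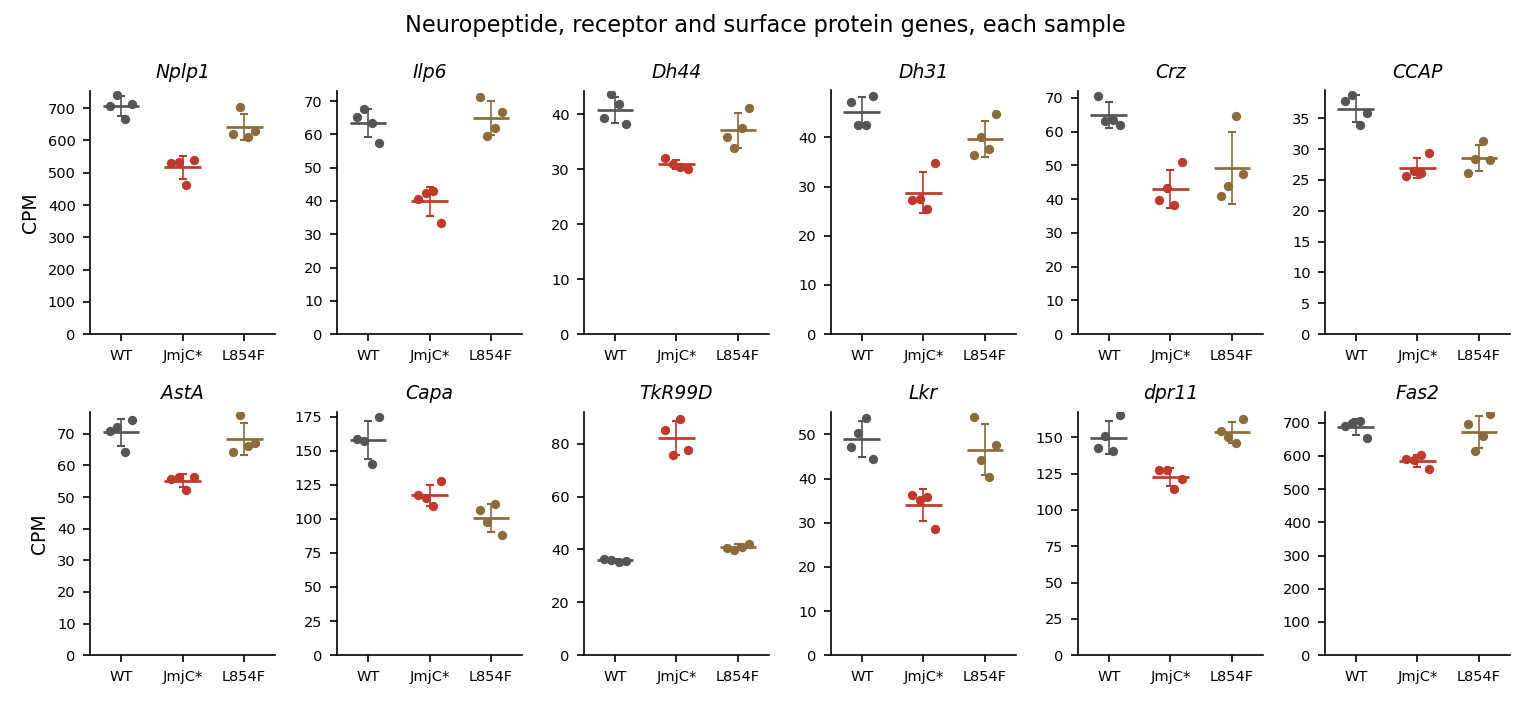
Level in CPM (vertical axes, starting at 0) in each of 4 WT, 4 JmjC* and 4 L854F samples for neuropeptide precursors, receptors and surface proteins. Points are samples, lines are means and bars are SDs; L854F was scaled in its own fit with WT. The JmjC* samples lie below all WT samples in every panel except TkR99D, where they lie above.

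Synapse and transmitter genes mostly held their level. Of 32 tested genes of synaptic vesicles and active zones, 2 were higher and 0 lower, with a median log2 change of 0.01. The active zone scaffold gene brp stood at 846 ± 69.7 CPM in WT and 856 ± 56.5 CPM in JmjC* (adjusted p 0.895). The membrane fusion protein gene Syx1A read 21.4, 39.5, 39.5 and 30.3 CPM in WT and 50.5, 57.4, 58.9 and 60.4 CPM in JmjC* (0.80, adjusted p 0.00595). nSyb, its vesicle partner and the 1 call among 16 pan-neuronal genes, stood at 549 ± 50.1 and 687 ± 80.9 CPM with overlapping groups (adjusted p 0.0323). It lost its call without any 1 of WT replicates 1 and 3 and JmjC* replicates 1, 2 and 4, with adjusted p up to 0.0884.

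Transmitter genes gave 2 rises and 2 falls of 21 (9.52% each), near the shares over all genes of 9.66% and 7.67%. The falls were Ddc and ple, enzymes of dopamine synthesis. Ddc, the decarboxylase, went from 94.7 ± 8.11 to 70.1 ± 5.63 CPM (log2 change -0.43, adjusted p 0.00266), and ple, tyrosine hydroxylase, from 7.59 ± 3.58 to 2.89 ± 0.781 CPM (-1.39, adjusted p 0.0166) with overlapping groups, and an adjusted p of 0.0532 without JmjC* replicate 1. Among 27 transmitter receptors 4 were higher (14.8%) and 2 lower (7.41%). The glutamate receptor subunits GluRIA (104 ± 6.36 to 76.8 ± 3.51 CPM, -0.43) and GluRIB (85.8 ± 8.87 to 62.8 ± 3.51 CPM, -0.45) fell, whereas the metabotropic receptor mGluR rose from 178 ± 14.9 to 256 ± 22.2 CPM (0.52).

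Of 34 voltage-gated and potassium channels 2 were higher (5.88%) and 3 lower (8.82%), beside 9.66% and 7.67% over all genes tested. The falls included 2 inward rectifiers, described here one by one. Irk2 read 20.4, 17.4, 24.3 and 21.5 CPM in WT and 8.35, 7.86, 12.6 and 6.72 CPM in JmjC* (log2 change -1.23, SE 0.18, adjusted p 0.000725). Irk1 fell from 10.3 ± 1.19 to 4.77 ± 1.36 CPM (-1.11, adjusted p 0.00181). As for Ctl2, JmjC* replicate 4 was the lowest and replicate 3 the highest of the JmjC* samples for both channels.

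Glial genes split. Of 27 tested, 4 were called higher (14.8%) and 8 lower (29.6%), beside 9.66% and 7.67% over all genes, with a median of -0.04. The list summed to between 4458 and 5006 CPM in WT samples and between 4752 and 5321 CPM in JmjC* samples. Rises numbered 1 without any 1 of WT replicates 1, 2 and 3 and JmjC* replicate 2, and 2 without JmjC* replicate 1 or 4. Falls numbered 4 without WT replicate 3 or JmjC* replicates 1 or 2, and 5 without WT replicate 4. The largest rise was alrm, given above, and bdl and Tret1-1 were also called higher. The falls included Mdr65, a drug efflux pump of the blood-brain barrier. It read 270, 327, 341 and 347 CPM in WT and 223, 221, 205 and 261 CPM in JmjC* (log2 change -0.50, adjusted p 0.00342). e, the enzyme ebony that couples amines to beta-alanine, fell from 69.6 ± 4.15 to 47.6 ± 5.51 CPM (-0.55), and axo, a secreted protein of axon-ensheathing glia, from 306 ± 12.9 to 233 ± 23.1 CPM (-0.40). Eaat1, the astrocyte glutamate transporter, stood at 248 ± 20.01 and 252 ± 15.6 CPM (adjusted p 0.851).

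Col4a1, vkg, LanA, Pxn and SPARC, which encode basement membrane proteins, fell; they come from different lists, and basement membrane genes were not counted as a group. Col4a1, type IV collagen, read 74.3, 75.5, 91.0 and 102 CPM in WT and 29.5, 29.3, 28.4 and 29.9 CPM in JmjC* (log2 change -1.55, SE 0.10, adjusted p 2.69e-06). The second collagen gene vkg fell from 77.2 ± 15.8 to 33.1 ± 9.38 CPM (-1.22), LanA, a laminin subunit, from 283 ± 47.9 to 196 ± 18.8 CPM (-0.53), Pxn, peroxidasin, from 92.8 ± 6.08 to 64.3 ± 9.49 CPM (-0.53) and SPARC from 59.3 ± 4.39 to 37.5 ± 2.35 CPM (-0.66). Hemocytes, fat body and surface glia all make such proteins. The hemocyte list summed to between 513 and 573 CPM in WT and between 395 and 459 CPM in JmjC* samples, with 3 of 14 tested members higher (PPO3, NimC2 and NimC4, each tested through JmjC* only) and 3 lower (Col4a1, vkg and Pxn themselves). The part of hemocytes in these falls was not tested.

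Muscle contractile genes, which can enter with body wall fragments, gave 0 rises and 6 falls of 20 tested, with a median log2 change of -0.56. The share of falls was 30%, beside 7.67% over all genes. Of the 6 falls 3 passed the filter through WT only, and the list summed to between 1458 and 1625 CPM in WT and between 1358 and 1474 CPM in JmjC* samples. Mlc2, the myosin regulatory light chain, read 9.98, 7.53, 9.58 and 17.5 CPM in WT and 2.09, 1.81, 1.71 and 3.86 CPM in JmjC* (-2.23, adjusted p 0.000686). TpnC47D, a troponin C, fell from 2.60 ± 0.484 to 0.896 ± 0.269 CPM (-1.53) and sls, the titin homologue, from 53.9 ± 8.76 to 34.4 ± 6.63 CPM (-0.65). Mlc2 in L854F was as low, at 1.83 ± 1.09 CPM (adjusted p 0.595 between the mutants). Cuticle proteins gave 1 rise (4.35%) and 5 falls (21.7%) of 23 tested. There were 2 falls without JmjC* replicate 1 or 2 and 3 without WT replicate 3. Of the 5 falls 3 passed the filter through WT only, and the rise through JmjC* only. The list had sums between 125 and 215 CPM in WT and between 81.0 and 128 CPM in JmjC*. The fat body list, by contrast, summed to between 1131 and 1328 CPM in WT and between 1357 and 1597 CPM in JmjC*. Of its 10 tested members 1 was called higher and 2 lower, and 8 had a negative difference. Whether a difference in adhering tissue between the dissections had a part in these values was not tested.

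Ribosome biogenesis genes leaned downward by small amounts. Of 44 ribosome biogenesis genes, all tested, 0 were called higher and 9 lower (20.5%, beside 7.67% over all genes). A negative difference was found for 32, and the median log2 change was -0.10. There were 4 falls without WT replicates 2 or 3 or JmjC* replicate 2, and 5 without JmjC* replicate 1. Tsr1, a factor that matures the small subunit, read 97.0, 96.9, 99.0 and 104 CPM in WT and 74.3, 74.9, 81.3 and 83.1 CPM in JmjC* (-0.34, SE 0.05, adjusted p 0.00142). pit, a nucleolar helicase, fell from 69.2 ± 2.59 to 55.6 ± 2.62 CPM (-0.32). JmjC* was called below L854F for 1 of the 44, beside 7.20% over all genes.

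Amino acid transporters fell in 6 (22.2%) and rose in 1 (3.70%) of 27 tested, beside 7.67% and 9.66% over all genes. There were 21 negative differences, and the median was -0.11. acs (FBgn0035300), annotated in the deposited ontology columns as an amino acid transmembrane transporter, read 9.56, 9.35, 6.84 and 7.73 CPM in WT and 1.17, 1.31, 1.78 and 0.685 CPM in JmjC* (log2 change -2.75, adjusted p 3.07e-05). For acs, L854F kept the WT level, at 8.42 ± 0.128 CPM. The list as a whole was also lower in L854F against WT, with 5 members called lower, 0 higher and a median of -0.16. Between the mutants, 4 of 27 were called higher in JmjC* and 2 lower. gb, a cystine and glutamate exchanger, fell from 110 ± 4.47 to 87.9 ± 3.06 CPM (-0.33), and mnd, a transporter of large neutral amino acids, from 104 ± 3.75 to 83.2 ± 4.24 CPM (-0.32). The list also held Ncc69, a cation-chloride transporter and no amino acid carrier, which fell from 103 ± 5.57 to 80.5 ± 3.02 CPM (-0.36).

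Core energy genes and mitochondrial ribosomal proteins were near their WT levels. Glycolysis had 0 calls of 20 tested, mitochondrial ribosomal proteins 1 higher and 2 lower of 75, and subunits of oxidative phosphorylation 2 higher and 1 lower of 72 (ATPsynepsilonL and Cyt-c1L, given above, were among them). The median log2 changes of these lists were 0.02, -0.04 and 0.05. Translation factors had 1 rise (2.04%) and 5 falls (10.2%) of 49, beside 9.66% and 7.67% over all genes, and 3 falls without JmjC* replicate 1. They leaned downward by small amounts, with 31 negative differences and a median of -0.05. Their list summed to between 27479 and 28809 CPM in WT samples and between 26556 and 27026 CPM in JmjC* samples.

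Genes of chromatin machinery changed little. Of 13 histone lysine demethylases, Kdm5 included, 0 were called in either direction by edgeR, and the median was 0.03. Of 16 genes of H3K4 methyltransferase complexes 1 was higher and 0 lower, of 22 corepressor genes 1 higher and 1 lower, and of 22 Polycomb genes 0 higher and 1 lower. The Polycomb member was escl, a copy of the PRC2 subunit esc, which fell from 54.9 ± 1.91 to 44.6 ± 1.58 CPM (log2 change -0.30, adjusted p 0.00189). Hox genes and cofactors had 1 rise and 0 falls of 10, and neuronal identity transcription factors 2 rises and 2 falls of 37.

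Several small heat shock genes rose. Of 12 listed 9 were tested, 5 called higher (55.6%, beside 9.66% over all genes) and 0 lower, with a median log2 change of 0.37. The list summed to between 3730 and 4688 CPM in WT samples and between 4929 and 5699 CPM in JmjC*. Hsp67Ba read 394, 349, 376 and 315 CPM in WT and 634, 600, 641 and 583 CPM in JmjC* (0.78, SE 0.07, adjusted p 3.48e-05). Hsp22, a mitochondrial member, read 45.9, 69.7, 29.3 and 26.5 CPM in WT and 130, 155, 93.6 and 149 CPM in JmjC* (1.62, adjusted p 0.00206), with WT samples that differed among themselves more than for Hsp67Ba. Hsp26 and Hsp23 rose by 0.84 and 0.37, while Hsp27, their neighbour in the same cluster, stood at 1300 ± 157 and 1190 ± 144 CPM and did not pass (adjusted p 0.440). In L854F, Hsp67Ba stood at 656 ± 37.3 CPM and the mutants did not pass the test (adjusted p 0.262).

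Among 24 tested antioxidant genes 2 were higher (8.33%) and 3 lower (12.5%), near the shares over all genes of 9.66% and 7.67%. The falls included MsrA, methionine sulfoxide reductase, which read 69.0, 63.4, 73.9 and 62.0 CPM in WT and 40.1, 41.0, 43.6 and 41.1 CPM in JmjC* (log2 change -0.69, adjusted p 4.04e-05), and Cat, catalase, at 124 ± 10.1 and 98.0 ± 7.38 CPM (-0.34). Of 21 IMD signalling genes 4 were higher (19.0%) and 2 lower (9.52%). Tab2, an adaptor of the pathway's kinase, rose from 12.8 ± 1.17 to 22.3 ± 1.53 CPM (0.79, adjusted p 0.000119).

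Chemosensory receptor genes were mostly too low to test. Of 145 listed, 124 were not tested. Of the 21 tested, 8 were called higher and 0 lower, and 5 of the 8 passed the filter through JmjC* only. Without WT replicate 2 there were 13. Among the 8 was ppk29. Or63a, an odorant receptor, had 2, 2, 1 and 1 counts in WT and 37, 44, 47 and 42 counts in JmjC*, without overlap. Ir31a, an ionotropic receptor, stood at 0.396 ± 0.111 and 2.67 ± 0.435 CPM (log2 change 2.74), the gustatory receptor Gr32a at 0.532 ± 0.0684 and 2.12 ± 0.380 CPM (1.98) and the odorant co-receptor Orco at 1.01 ± 0.209 and 2.54 ± 0.529 CPM (1.31). JmjC* was called above L854F for 9 of 19 and below it for 0, where 8.80% and 7.20% of all genes were called. Of the 21 receptors tested against WT, 10 passed the filter through JmjC* only. These counts are therefore no support for a difference from other genes.

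Replication-dependent histone transcripts rose among those that could be measured, in libraries selected for polyadenylated RNA, a tail that most such transcripts lack. Of 88 listed genes 11 were tested and all 11 were higher, 10 of which passed the filter through JmjC* only. His1:CG33816 stood at 7.60 ± 1.80 CPM in WT and 15.2 ± 2.003 CPM in JmjC* (log2 change 0.995, adjusted p 0.00202). The other 10 were His2B copies, 9 of them with the same deposited counts (0.381 CPM in WT and 2.04 CPM in JmjC*), so they are not separate observations. The list summed to between 20.05 and 23.7 CPM in WT and between 55.6 and 65.6 CPM in JmjC* samples.

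Of 257 tested noncoding genes 72 were higher and 11 lower. Of these 257 genes 59, and of the 72 rises 32, passed the filter through JmjC* only, so the share called is no support for a difference from protein-coding genes. In the list of long noncoding RNAs, 61 of 239 tested were higher and 12 lower, and 29 of the 61 passed the filter through JmjC* only. lncRNA:CR45471 read 9.62, 12.05, 8.92 and 10.8 CPM in WT and 44.3, 47.9, 47.0 and 45.8 CPM in JmjC* (log2 change 2.16, adjusted p 1.56e-07). lncRNA:CR44440, which passed the filter through JmjC* only, stood at 0.607 ± 0.0518 and 9.08 ± 0.998 CPM (3.89). lncRNA:CR45242 fell from 20.6 ± 1.13 to 5.58 ± 0.984 CPM (-1.88). Features with a BGI_novel identifier, which have no symbol or position, were higher in 61 (52.6%) and lower in 5 (4.31%) of 116 tested. The shares over all genes were 9.66% and 7.67%. Of these 116 features 18, and of the 61 rises 13, passed the filter through JmjC* only.

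By position, the largest share of rises lay on chromosome 4. On chromosome 4, a short and largely heterochromatic chromosome, 20 of 87 tested genes were higher (23.0%, beside 9.66% over all genes) and 1 was lower. A positive difference was found for 67 (median log2 change 0.11). Without any 1 library, between 15 and 20 were higher. mav, a TGF-beta ligand made by glia, rose from 21.8 ± 2.5 to 35.8 ± 1.80 CPM (0.72), the kinesin gene Kif3C from 27.3 ± 1.48 to 43.3 ± 5.22 CPM (0.66) and the transcription factor gene zfh2 from 555 ± 43.7 to 664 ± 8.01 CPM (0.26). Asator, the abundant fall above, was the only called fall on this chromosome.

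On the X chromosome, 170 of 1537 tested genes were higher (11.1%) and 72 lower (4.68%), beside 9.66% and 7.67% over all genes. A positive difference was found for 898, and the median was 0.03. Without JmjC* replicate 1, 42 X-linked genes were lower. Of 18 genes of dosage compensation and sex determination, 1 was higher and 0 lower. That was lncRNA:roX2, an RNA that guides the male dosage compensation complex to the X, with 20.7, 12.9, 17.5 and 19.8 CPM in WT and 29.4, 25.7, 28.2 and 29.2 CPM in JmjC* (log2 change 0.66, adjusted p 0.00421). lncRNA:roX1, which does the same work, stood at 736 ± 134 and 917 ± 97.4 CPM with overlapping groups (adjusted p 0.109). The sex of the larvae is not given, and its part in the X-linked counts was not tested. Within 0.5 Mb of Kdm5, 2 of 86 tested genes were higher (2.33%) and 4 lower (4.65%), both below the shares over all genes.

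**Figure D5:**
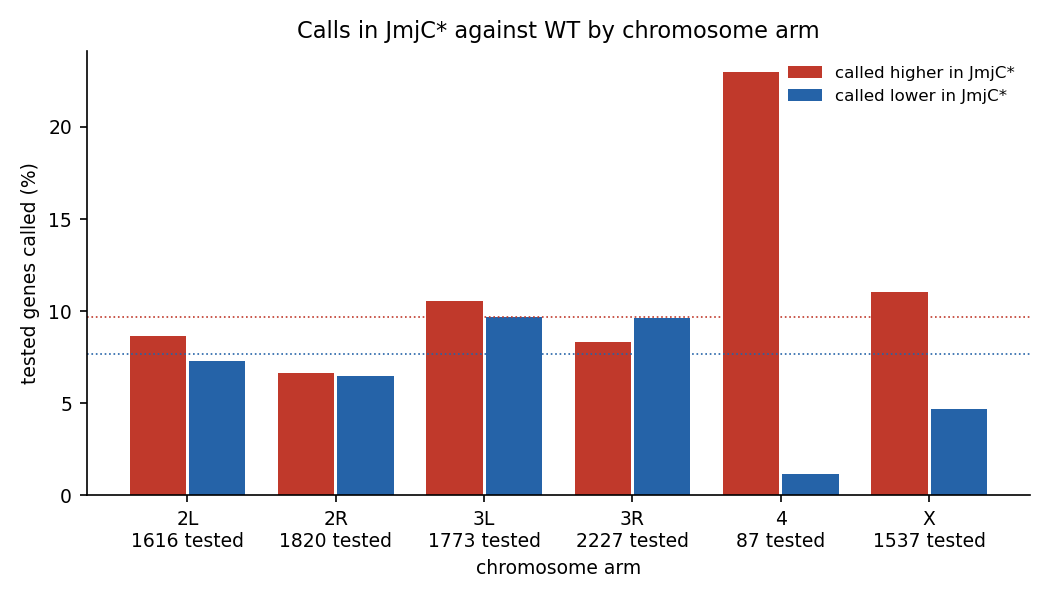
Share of tested genes called higher (red) or lower (blue) in JmjC* against WT, in percent, on each chromosome arm, with the number tested under each name. Dotted lines are the shares over all genes tested. Chromosome 4 shows 23.0% higher, and the X chromosome 11.1% higher and 4.68% lower.

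The gene ontology terms of the deposited annotation were counted in the same way. Among 648 terms with 20 to 300 tested genes, the highest shares of rises were in mitotic spindle (8 of 22 genes, 36.4%), mitotic spindle organization (14 of 42, 33.3%), cilium assembly (10 of 31, 32.3%), kinesin complex (9 of 29, 31.0%), midbody (8 of 26, 30.8%) and kinetochore (11 of 39, 28.2%). The highest shares of falls were in neuropeptide hormone activity (9 of 24, 37.5%), amino acid transmembrane transporter activity (9 of 25), amino acid transmembrane transport (7 of 23) and metallopeptidase activity (9 of 31). Fatty acid beta-oxidation followed with 7 of 25 genes lower and 2 higher, and adult chitin-containing cuticle pigmentation with 7 of 26 lower and 3 higher. The terms share members with each other and with the lists.

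The direct comparison of the mutants called 1473 of 9207 genes (16.0%), beside 504 of 9105 (5.54%) for L854F against WT. Without JmjC* replicate 1 the mutants differed in 977 genes and without L854F replicate 1 in 980. Of the 893 rises in JmjC* 892 were also tested between the mutants, and 502 of them were called above L854F. Of the falls 697 were tested, and 347 were called below L854F. These comparisons share the JmjC* samples, so the counts are not independent of each other. thw, bam, alrm, aub, RpS5b, acs and Ctl2 were at or near WT level in L854F, whereas sordd2, Hsc70-1, Mlc2, Asator, MsrA and Hsp67Ba stood near their JmjC* level in L854F.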

How the data were processed

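Poly(A) RNA from the ventral nerve cord was sequenced by the authors with a stranded TruSeq kit, per the labels' protocols. The submitters' processing notes name Bowtie2 2.2.5, RSEM 1.2.12, DESeq2 and build dm6, with no role or order. The deposited tables hold RSEM expected counts per gene, already whole numbers. Whether counting used the strand is not given in the sources used here, so overlapping and antisense genes are uncertain. The authors' own fold changes and p-values were not used.

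For JmjC* against WT, edgeR (version 4.0.16, in R 4.3.3) was used. Low genes were removed by filterByExpr (minimum count 10, minimum total 15, about 0.614 CPM in at least 4 samples), TMM factors scaled the libraries, and the quasi-likelihood test was applied with Benjamini-Hochberg adjustment over all 9244 genes. All adjusted p-values come from these fits unless DESeq2 (1.42.0) is named. JmjC* and L854F were fitted in the same way over genes in both tables. The code was tested on simulated data. Intervals of counting error are not given, and a floor of 3 counts per library covers counting error only.

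Gene names and positions (BDGP6.54) were matched by FlyBase identifier, with 14038 of 14251 identifiers matched to a symbol. Members and gene lists were chosen with earlier results of these data known, and 48 listed names matched no gene. Lists are described by counts and medians, without a set test. The text names Kdm5, the 8 largest rises and falls with a symbol, no overlap and at least 10 CPM, the 6 largest among genes of at least 200 CPM, and up to 3 called members per list and direction by adjusted p, of which not all are printed. Members named beyond that rule, such as osk, pum, vret, Spc25, Crz and Dh31, and the genes given as references, were chosen after their values were seen. Same-numbered samples were not treated as paired in the main fit. Correlations of their deviations from group means were 0.081, -0.043, 0.191 and 0.085. On the second principal component, however, replicate numbers ran in the same order in both groups. WT replicates 1 to 4 stood at -3.60, 2.26, -5.31 and 8.68, and JmjC* replicates 1 to 4 at -3.44, 5.77, -16.0 and 11.6. Whether the replicate numbers mark a shared batch was not tested. The planned search for promoter motifs was not run, since no promoter sequence was used here.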

Additional observations from a re-analysis of the deposited data

Results flagged for a closer look

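In 18 of the 282 groups of 4 samples examined for the printed genes, 1 sample lay further from the rest than Dixon's 95% limit allows, and chance alone gives about 1 in 20. In JmjC* replicate 3 this held for Nplp1 (461.3 CPM), AstA (52.16 CPM), GluRIB (57.55 CPM), NimC2 (4.163 CPM) and His1:CG33816 (18.18 CPM). In WT replicate 3 it held for Kdm5 (667.1 CPM), Cdk1 (40.99 CPM), Oamb (57.29 CPM), zpg (0.1785 CPM) and sordd2 (0.2379 CPM). The remaining samples were WT replicate 1 for thw (1.314 CPM) and cv-d (273.7 CPM), WT replicate 2 for vas (1.192 CPM), JmjC* replicate 1 for zpg (1.473 CPM) and Rpt3R (5.279 CPM), JmjC* replicate 2 for ple (4.057 CPM) and Gr32a (2.684 CPM), and JmjC* replicate 4 for Lkr (28.63 CPM).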

How the results depend on the processing

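The count of JmjC* calls was 1582 with library totals, 1618 with RLE factors, 1625 with robust dispersion, 1552 without the low-count filter and 1778 with DESeq2. At an adjusted p under 0.01 it was 812, with 500 higher and 312 lower. A filter of at least 5 CPM in 4 samples left 1250 calls, 632 higher and 618 lower. That filter left 1 chemosensory receptor, 1 replication-dependent histone, 16 long noncoding RNAs and 2 germline genes called higher. Leaving out 1 replicate gave 1148 to 1698 calls, 690 to 933 higher and 458 to 765 lower, and for JmjC* against L854F 977 to 1725 calls, 411 to 812 of them lower in JmjC*. Falls against WT numbered 458 without JmjC* replicate 1; against L854F calls numbered 980 without L854F replicate 1 and 977 without JmjC* replicate 1, and falls 426, 411 and 421 without L854F replicate 1 and JmjC* replicates 1 and 2.

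With the replicate number as a replicate block, 1647 genes were called against WT and 2038 against L854F, and 3 of 8 samples correlated best with their own number. Kdm5 had an adjusted p between 0.11 and 0.415 in all settings. Of the named genes, Gpb5 lost its call under the block (adjusted p 0.0528) and Pal1 with library totals (adjusted p 0.0544). At an adjusted p under 0.01, 14 lost theirs: krimp, Rpt6R, tum, scra, FMRFa, Gpb5, Mip, Con, nSyb, ple, Hsp23, NimC2, zfh2 and Pal1. No named gene changed direction in any setting. The promoter motif search was not run. Depth limits the genes under 1 CPM.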
